A study of Mus musculus with 16 samples.

Results

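The DNA replication and S phase genes described here are 39 genes that load, fire, copy and finish replicating DNA, chosen by name from the known roles of their proteins and followed across 2 mouse small cell lung cancer lines. The list was chosen with earlier results of these data known, so its shares beside those of all genes are not an independent test. Of the 39 genes, 38 had a probe set with a single gene symbol on the array, out of 12393 genes measured in that way. Chaf1a, the large subunit of chromatin assembly factor 1, had none. Where a gene had several probe sets, the brightest on average over the 16 arrays stood for it. All 38 genes passed the filter on dim probe sets, a signal above log2 4 on at least 2 arrays, as did 8777 of the 12393 genes.

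The series measured total RNA of the lines 3583T3 and 3151T4, each grown in culture from the dissociated tumour of that number. Small cell lung cancer is a neuroendocrine tumour of the lung, and the series asks how the transcription factor Nfib acts in it as an oncogene, alone and beside Mycl1 (L-Myc, current symbol Mycl). Each line was measured as untransfected control cells, with the retroviral vector MSCV-Nfib-PGK-Neo (FLAG-tagged mouse Nfib, selection with G418), with MSCV-L-myc-PGK-Puro (selection with puromycin) and with both. There were 2 arrays per line and vector, so 4 per vector, and nothing in the labels says that they came from separate cultures. The p-values therefore rest on the spread between arrays of a group, and this spread may be technical alone. In comparisons over both lines they also rest on how far the lines differ in their response to a vector. The control cells had no empty vector and no selection, so vector, drug and transgene cannot be told apart in comparisons with control. Values are log2 signals of the array, changes are differences of log2 signal with their standard error (SE), and a gene was called where limma's adjusted p over the 8777 genes was under 0.05.

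Before S phase, the origin recognition complex (Orc1 to Orc6), Cdc6 and Cdt1 load the ring of Mcm2 to Mcm7 on DNA, and geminin holds Cdt1 back. Cdc45, GINS and Mcm10 then turn the ring into a moving helicase. Primase and polymerase alpha start each strand, replication factor C loads the sliding clamp Pcna, and polymerases delta and epsilon copy. E2F factors switch on many of these genes as cells pass from G1 to S, and MYC proteins, which bind E-boxes, are known to drive entry into S phase. In small cell lung cancer the loss of RB, which holds E2F in check, is a defining feature. In RNA from whole cultures, more cells in S phase and more RNA per cell cannot be told apart.

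The 250 bases before the RefSeq start of the gene (build GRCm38.p6) were given for 34 of the 39 genes and were searched on both strands for the E2F motifs TTTCGCGC, TTTGGCGC, TTTCCCGC and TTTGCGCC, for the E-box CACGTG and for CCAAT. An E2F motif stood in 8 of the 34 promoters (23.5%: Cdc6, Mcm5, Mcm6, Mcm7, Orc1, Pola1, Rfc3 and Uhrf1), in 4.44% of the promoters of 7123 genes tested on the array and in 2.14% of all 27025 promoters of the table. The E-box stood in 6 (17.6%: Chaf1a, Fen1, Pola2, Rfc1, Rpa1 and Tyms), against 10.1% and 6.86%, and CCAAT in 22 (64.7%), against 40.8% and 37.5%. A match is a run of letters and shows no binding. More of these genes were called in the comparisons below than are shown. The promoters shown are examples picked from genes called below, Mcm5, Orc1 and Rfc3 for the E2F motif and Pola2 for the E-box. They lie at chr8:75109259-75109508 on the plus strand (Mcm5), chr4:108579204-108579453 on the plus strand (Orc1), chr5:151651209-151651458 on the minus strand (Rfc3) and chr19:5964207-5964456 on the minus strand (Pola2). Capitals mark the motif, which in Mcm5 is TTTCGCGC overlapped by TTTGGCGC read on the other strand, and in Orc1 is TTTCGCGC on the other strand.
Mcm5: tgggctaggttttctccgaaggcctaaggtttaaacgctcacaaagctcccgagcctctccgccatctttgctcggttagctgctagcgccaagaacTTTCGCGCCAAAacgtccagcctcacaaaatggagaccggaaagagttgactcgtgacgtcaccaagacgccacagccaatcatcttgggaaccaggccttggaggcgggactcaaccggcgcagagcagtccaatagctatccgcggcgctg
Orc1: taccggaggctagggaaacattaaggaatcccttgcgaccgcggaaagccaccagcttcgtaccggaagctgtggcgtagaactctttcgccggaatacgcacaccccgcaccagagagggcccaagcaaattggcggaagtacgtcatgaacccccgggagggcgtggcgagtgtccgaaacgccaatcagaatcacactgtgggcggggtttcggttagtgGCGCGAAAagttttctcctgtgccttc
Rfc3: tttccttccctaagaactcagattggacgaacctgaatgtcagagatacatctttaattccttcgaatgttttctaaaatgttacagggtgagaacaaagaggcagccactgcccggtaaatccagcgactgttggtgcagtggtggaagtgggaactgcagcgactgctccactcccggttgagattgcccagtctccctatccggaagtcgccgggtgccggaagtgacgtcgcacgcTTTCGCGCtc
Pola2: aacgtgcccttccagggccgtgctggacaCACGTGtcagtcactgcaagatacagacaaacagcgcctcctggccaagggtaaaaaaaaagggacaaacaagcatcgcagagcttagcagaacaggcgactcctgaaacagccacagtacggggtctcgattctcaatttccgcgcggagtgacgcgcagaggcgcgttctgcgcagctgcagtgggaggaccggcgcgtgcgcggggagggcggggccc

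The labels and the cells were checked first. The probe set that sees the Mycl transgene was at 2.12 to 2.55 on the other arrays without the Mycl1 vector and at 9.08 to 11.05 on the other arrays with it, but went against the label on 2 arrays. In 3583T3 it was at 10.22 on replicate 2 labelled Nfib and at 2.67 on replicate 2 labelled Nfib+Mycl1. Across the 8777 genes, which are not independent replicates, the 4 arrays of 3583T3 labelled Nfib or Nfib+Mycl1 each correlated best with an array of the other label. Nfib replicate 1 matched Nfib+Mycl1 replicate 2 (r = 0.989) better than its own replicate (0.979), and Nfib+Mycl1 replicate 1 matched Nfib replicate 2 (0.990) better than its own (0.980). The other 12 arrays matched their own replicate best. Whether the 2 arrays labelled replicate 2 were exchanged was not tested. They were kept as labelled and are called the doubted arrays. In the pairs of 3583T3 values given for each gene, the second value with Nfib and the second with both vectors is a doubted array, so for this line those pairs are values of the labels. Some counts and medians are also given without them, where 1 array stands for each of these groups and is assumed to vary like the others. The brightest of the 4 Nfib probe sets did not show the Nfib vector, being at 9.82 to 10.45 on arrays labelled Nfib and at 10.48 to 10.76 on control arrays, and whether it lies within the vector's Nfib sequence was not tested. One of the 3 probe sets of Mycn, another MYC gene, was at 2.03 to 2.56 on the control arrays and at 12.19 to 13.26 on every array with a vector, while the other 2 were between 2.81 and 5.39 on all arrays. Leukocyte markers also went with the vectors. Their mean level was 7.50 to 8.41 in 3583T3 control cells (14 of 16 above log2 4) and 6.40 to 6.48 in 3151T4 control cells (12 of 16), against 2.72 to 3.52 on the arrays with a vector (1 to 4 of 16 in each group), where Ptprc (CD45) was at 1.77 to 2.30. The median change of the 14 leukocyte markers tested was -4.38 with Nfib, -4.76 with Mycl1 and -4.79 with both. The part of Mycn and of the leukocyte RNA in the changes against control was not tested. Fibroblast markers were high on all arrays (14 to 16 of 17 above log2 4 in each group). Of the 17, 9 were called higher with Nfib and 5 lower with Mycl1, where 10.3% and 11.3% of all genes were called. With both, 3 were higher and 1 lower, a share not above the 31% of all genes called. Their mean level in 3583T3 was 8.61 to 8.95 in control cells, 10.14 to 10.29 with Nfib, 8.80 to 9.09 with Mycl1 and 10.10 to 10.25 with both. In 3151T4 it was 10.05 to 10.10, 11.25 to 11.36, 9.03 to 9.17 and 10.10 to 10.31 in the same order. The part of the fibroblast markers in the changes of the replication genes was not tested. Of the neuroendocrine markers Chga, Chgb, Syp, Syt1 and Neurod1 were near the floor on every array (1.95 to 3.19), Ncam1 was at 11.52 to 12.37, Uchl1 at 7.88 to 11.39, and Ddc at 7.41 to 10.71 in 3151T4 and at 1.42 to 1.89 in 3583T3. Of the 13 on the array, 3 to 5 were above log2 4 in each group. The mean level of the 13 in 3151T4 was 5.33 in control cells, 4.92 to 4.99 with Nfib, 5.28 to 5.34 with Mycl1 and 4.91 to 5.01 with both. In 3583T3 it was 4.24 to 4.26, 3.98 to 4.17, 4.35 to 4.40 and 4.12 to 4.25 in the same order.

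Against control, few replication genes rose with Nfib, more with Mycl1 and 18 of 38 with both vectors, led by Mcm5, Pola2, Mcm10 and Rfc2. With Nfib alone 3 of 38 were called higher and 0 lower (10.3% of all genes tested were called, 5.3% higher), a share of the 38 that is near this background. The median change of the 38 genes was 0.16, against 0.03 over all genes, and 0.09 without the doubted arrays. With Mycl1 alone 8 were called higher and 0 lower (11.3% of all genes, 6.63% higher), with a median of 0.39 against 0.03. With both, 18 were called higher and 1 lower (31% of all genes, 16.3% higher and 14.7% lower), with a median of 0.41 against 0.03. Without the doubted arrays the medians were 0.39 with Mycl1 and 0.48 with both, against 0.03 and 0.02 over all genes. The 3 comparisons share the control arrays. Pold2, Cdt1 and Mcm5 rose with Nfib. With Mycl1 the genes that rose were Pola2, Mcm10, Mcm5, Pold2, Mcm7, Cdt1, Rfc3 and Rpa2, with Mcm7 at 0.49 ± 0.14 (adjusted p = 0.0345), Mcm10 at 0.86 ± 0.24 (0.0366) and Rpa2 at 0.38 ± 0.12 (0.0468). With both vectors they were Mcm5, Pola2, Mcm10, Rfc2, Pold1, Pold2, Chaf1b, Orc1, Rfc5, Fen1, Rfc3, Lig1, Tyms, Pole, Rfc1, Cdt1, Gmnn and Tk1, while Mcm4 was lower.

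Single arrays moved these counts. Of the calls above, 1 of 3 (Pold2) with Nfib, 3 of 8 (Mcm5, Pola2 and Pold2) with Mycl1 and 12 of 19 with both held whichever of the 16 arrays was left out. The other 7 with both were lost in 1 (Chaf1b) to 10 (Tk1) of these 16 fits. With Nfib the count was 1 without either 3151T4 Nfib array or either 3151T4 control array. With Mycl1 it was 3 without 3583T3 Mycl1 replicate 1, 3151T4 Mycl1 replicate 4 or 3151T4 control replicate 4, 4 without 3583T3 control replicate 1 or 3151T4 control replicate 3, and 5 without 3583T3 control replicate 2 or 3151T4 Mycl1 replicate 3. With both it was 12 without 3151T4 Nfib+Mycl1 replicate 3. Without the 2 arrays that went against their labels, 2 were called higher and 1 lower with Nfib (Mcm5 then had an adjusted p of 0.0628 in limma's fit), 15 higher with Mycl1 (10.4% of all genes were higher) and 21 higher and 0 lower with both (17.7% higher).

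**Figure D1:**
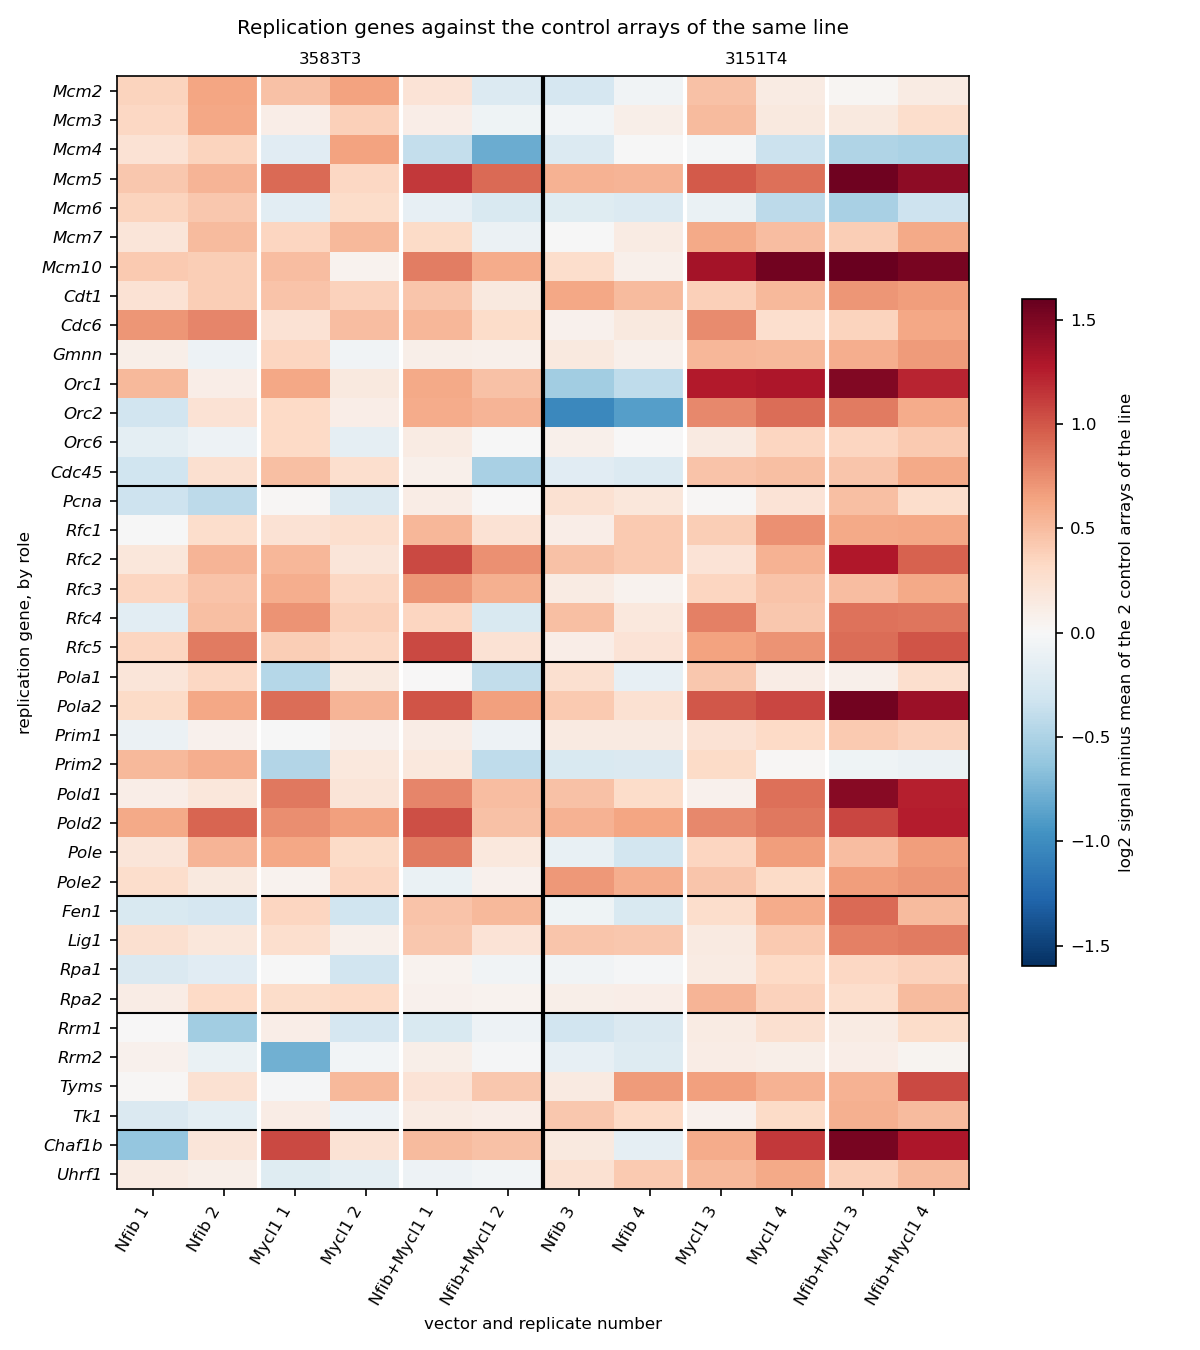
Log2 signal of the 38 replication genes (rows, by role) on the 12 arrays with a vector, minus the mean of the 2 control arrays of the same line, with red for higher and blue for lower. Mcm5 is above its control mean on all 4 arrays of each vector, and the Mcm4 probe set is below it on all 4 Nfib+Mycl1 arrays.

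Among the 14 genes of origin licensing and firing, 2 were called higher with Nfib, 4 with Mycl1 and 5 with both, where 1 was lower (medians 0.13, 0.43 and 0.33). Of all genes tested, 5.3%, 6.63% and 16.3% were called higher in these comparisons, and 14.7% lower with both. The lists by role hold few genes, and a single call in one does not set it apart from these shares. Mcm5, a subunit of the helicase ring, had the smallest p of all 38 genes with both vectors. Mcm5 was at 8.97 and 9.21 on the 3583T3 control arrays, 9.53 and 9.63 with Nfib, 10.00 and 9.42 with Mycl1, and 10.22 and 10.00 with both. In 3151T4 Mcm5 was at 8.70 and 8.48 in control cells, 9.14 and 9.13 with Nfib, 9.57 and 9.47 with Mycl1, and 10.14 and 10.01 with both. Within each line every array with a vector was above both control arrays. Mcm5 rose by 0.52 ± 0.14 with Nfib (adjusted p = 0.0327 in limma's fit), by 0.77 ± 0.14 with Mycl1 (0.00773) and by 1.25 ± 0.14 with both (8.44e-05), a 2.39-fold change.

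Cdt1 loads the ring together with Cdc6, and its 3583T3 signal was 10.78 and 10.46 in control cells, 10.85 and 11.01 with Nfib, 11.08 and 10.99 with Mycl1, and 11.07 and 10.78 with both. In 3151T4 Cdt1 was at 10.40 and 10.24 in control cells, 10.93 and 10.83 with Nfib, 10.70 and 10.83 with Mycl1, and 11.02 and 10.99 with both. The control arrays were the lowest in 3151T4, while in 3583T3 one Nfib+Mycl1 array, the one whose transgene signal went against its label, lay at the level of the higher control array. The change was 0.44 ± 0.11 with Nfib (adjusted p = 0.0239), 0.43 ± 0.11 with Mycl1 (0.029) and 0.49 ± 0.11 with both (0.00592). Cdc6 was at 9.41 and 9.02 in 3583T3 control cells, 9.93 and 10.00 with Nfib, 9.45 and 9.71 with Mycl1, and 9.75 and 9.51 with both. In 3151T4 Cdc6 was at 9.48 and 9.58 in control cells, 9.59 and 9.68 with Nfib, 10.28 and 9.80 with Mycl1, and 9.89 and 10.15 with both. No array with a vector was below the control arrays of its line, yet the changes of 0.43, 0.44 and 0.45 (SE 0.17 each) did not pass the test over both lines. In 3583T3 alone Cdc6 rose with Nfib by 0.75 ± 0.20 (adjusted p = 0.0274), a call lost without the array labelled Nfib replicate 2 or without control replicate 2, and at 0.71 (adjusted p = 0.118) without the 2 doubted arrays.

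Mcm10, which helps to activate the helicase, was at 8.26 and 8.36 in 3583T3 control cells, 8.73 and 8.70 with Nfib, 8.80 and 8.36 with Mycl1, and 9.13 and 8.90 with both. In 3151T4 Mcm10 was at 7.04 and 6.82 in control cells, 7.21 and 7.01 with Nfib, 8.26 and 8.48 with Mycl1, and 8.51 and 8.45 with both. The 3151T4 arrays with the Mycl1 vector lay more than a log2 unit above those without it. Orc1, the largest subunit of the origin recognition complex, was at 7.001 and 7.37 in 3583T3 control cells, 7.70 and 7.29 with Nfib, 7.80 and 7.33 with Mycl1, and 7.80 and 7.65 with both. In 3151T4 Orc1 was at 5.93 and 5.90 in control cells, 5.36 and 5.50 with Nfib, 7.19 and 7.21 with Mycl1, and 7.40 and 7.13 with both. Here too the 3151T4 arrays separated by the Mycl1 vector, and the 3583T3 arrays overlapped. With both vectors Mcm10 rose by 1.13 ± 0.24 (adjusted p = 0.00424) and Orc1 by 0.94 ± 0.29 (0.0238).

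Orc2, another subunit of the complex, followed the vectors in 3151T4, at 8.64 and 8.35 in control cells, 7.46 and 7.61 with Nfib, 9.26 and 9.38 with Mycl1, and 9.33 and 9.08 with both. In 3583T3 Orc2 was at 8.39 and 8.56 in control cells, 8.16 and 8.71 with Nfib, 8.79 and 8.58 with Mycl1, and 9.07 and 9.02 with both. The 3151T4 Nfib arrays were the lowest of that line and did not overlap any other group. Within 3151T4 Orc2 fell with Nfib by 0.96 on the log2 scale (SE 0.20, adjusted p = 0.00515) and rose with Mycl1 by 0.83 ± 0.20 (0.015). The fall in Nfib cells was not called without either 3151T4 Nfib replicate 3 or 3151T4 control replicate 3 (highest adjusted p 0.0647), and Orc2 passed no test against control over both lines. Geminin, the inhibitor of Cdt1, rose with both vectors by 0.36 ± 0.12 (Gmnn, adjusted p = 0.0354). Orc6 (0.22 ± 0.11) and Cdc45, the helicase activator (0.15 ± 0.20), were not called with both vectors.

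The 6 genes of the Mcm ring gave different values on different probe sets. With both vectors the brightest probe sets of Mcm2 (0.04 ± 0.17), Mcm3 (0.12 ± 0.15), Mcm6 (-0.31 ± 0.14) and Mcm7 (0.30 ± 0.14) were not called, and that of Mcm4 was lower (-0.54 ± 0.19, adjusted p = 0.0425). These 5 probe sets end in x_at or s_at, marks of probes that can bind other transcripts or that several transcripts share. The Mcm4 probe set was at 12.14 and 11.77 in 3583T3 control cells, 12.19 and 12.31 with Nfib, 11.77 and 12.60 with Mycl1, and 11.58 and 11.16 with both. In 3151T4 it was at 11.83 and 12.51 in control cells, 11.96 and 12.17 with Nfib, 12.14 and 11.83 with Mycl1, and 11.69 and 11.66 with both. The Nfib+Mycl1 arrays were the lowest of each line. The call was lost in 9 of the 16 fits without 1 array, and without the 2 doubted arrays (-0.42, adjusted p = 0.115).

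Some other probe sets of Mcm2, Mcm3, Mcm4 and Mcm7 rose. In a fit over 15799 probe sets the dimmer ones changed with both vectors by 0.82 ± 0.17 for Mcm2 (adjusted p = 0.00327), 0.89 ± 0.16 and 0.93 ± 0.19 for Mcm3 (0.00175 and 0.00347), 0.51 ± 0.14 for Mcm4 (0.0125) and 0.89 ± 0.14, 1.07 ± 0.18 and 1.17 ± 0.16 for Mcm7 (0.00114, 0.00147 and 0.00036). The ending does not sort all of them, since 2 of the 3 Mcm7 probe sets that rose end in s_at too. The second Mcm6 probe set (0.24 ± 0.10) and the other 2 of Mcm3 (0.20 and 0.07) were not called. The same held outside the ring for Rfc4 (0.46 ± 0.19 on the brightest, 0.97 ± 0.21 on the other), Rpa2 (0.23 ± 0.12 and 0.91 ± 0.20), Rrm2 (0.06 ± 0.15 and 0.10 ± 0.11 on the 2 brighter, 0.69 ± 0.24 on the dimmest) and Prim2 (-0.10 ± 0.21 and 0.44 ± 0.16), of which the last value in each case was called. Over the 67 probe sets tested for the 38 genes, 25 genes were higher with both vectors on at least 1 probe set and 1 was lower, and 8 of the 21 genes with several probe sets were called higher only away from the brightest one. A gene with several probe sets had more chances of a call, and the share of all 15799 probe sets called is not given here. The 25 therefore cannot be read as a stronger result than the count on the brightest probe sets. Without x_at and s_at probe sets, an alternative chosen after seeing the data, 21 genes were called higher with both vectors and 0 lower, and Mcm4 turned from -0.54 to 0.51. The share of all genes called in that fit is not given here. With both vectors, 5 of the 21 genes with several probe sets had one opposite in sign to the brightest. Among these the dimmer probe set was the lower one for Rpa1 (0.17 on the brightest, -0.32 on the other) and Rrm1 (0.02 and -0.32). Which probe sets follow the messenger RNA was not tested.

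**Figure D2:**
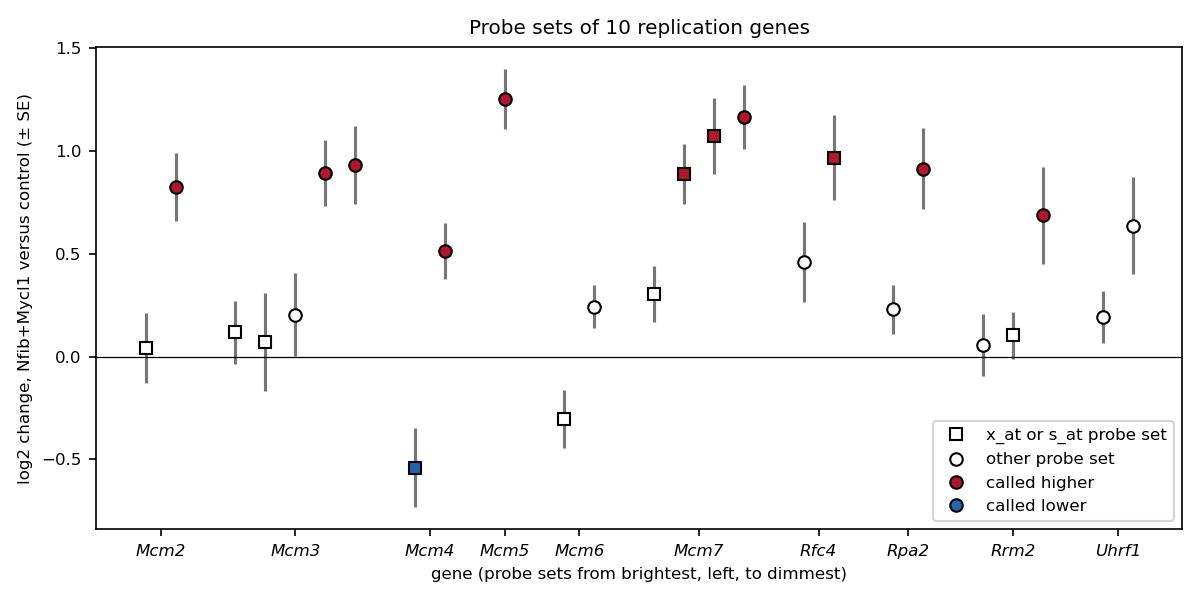
Log2 change (± SE) in Nfib+Mycl1 versus control for each probe set of 10 replication genes, from the brightest (left) to the dimmest of each gene. Squares are x_at or s_at probe sets and circles the others, filled red where called higher and blue where called lower. For Mcm4 the brightest probe set is at -0.54 and the other at 0.51.

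Of the 6 genes of the sliding clamp and its loader, 0 were called with Nfib, 1 with Mycl1 (Rfc3) and 4 with both (Rfc1, Rfc2, Rfc3 and Rfc5), all higher. Over all genes 5.3%, 6.63% and 16.3% were called higher. Pcna, the clamp that tethers the polymerases, was at 12.45 and 12.52 in 3583T3 control cells, 12.15 and 12.07 with Nfib, 12.51 and 12.25 with Mycl1, and 12.60 and 12.49 with both. In 3151T4 Pcna was at 12.20 and 11.76 in control cells, 12.22 and 12.17 with Nfib, 12.003 and 12.20 with Mycl1, and 12.46 and 12.27 with both. The Nfib arrays were the lowest in 3583T3 and the arrays with both vectors the highest in 3151T4, while the other groups overlapped. Pcna changed by -0.08, 0.01 and 0.22 (SE 0.12 each), and none of these passed the test.

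Rfc2, a small subunit of the loader, was at 8.81 and 8.98 in 3583T3 control cells, 9.07 and 9.44 with Nfib, 9.43 and 9.09 with Mycl1, and 9.96 and 9.62 with both. In 3151T4 Rfc2 was at 9.92 and 9.65 in control cells, 10.25 and 10.20 with Nfib, 10.01 and 10.34 with Mycl1, and 11.07 and 10.73 with both. The arrays with both vectors were the highest of each line. The change was 0.40 ± 0.14 with Nfib and 0.38 ± 0.14 with Mycl1, neither called, and 1.00 ± 0.14 with both (adjusted p = 0.000392).

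Rfc3, also a loader subunit, was at 9.45 and 9.40 in 3583T3 control cells, 9.76 and 9.88 with Nfib, 10.01 and 9.75 with Mycl1, and 10.13 and 9.99 with both. In 3151T4 Rfc3 was at 10.77 and 10.31 in control cells, 10.67 and 10.59 with Nfib, 10.88 and 11.00 with Mycl1, and 11.03 and 11.15 with both. The highest 3583T3 array was below the lowest 3151T4 array, so the lines did not overlap. Rfc3 rose by 0.43 ± 0.12 with Mycl1 (adjusted p = 0.0305) and by 0.59 ± 0.12 with both (0.00245). With both vectors Rfc5 rose by 0.80 ± 0.19 and Rfc1, the large subunit, by 0.50 ± 0.14.

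Among the 8 genes of the polymerases and primase, 1 was called with Nfib (Pold2), 2 with Mycl1 (Pola2 and Pold2) and 4 with both (Pola2, Pold1, Pold2 and Pole), all higher. Over all genes 5.3%, 6.63% and 16.3% were called higher. Pola2, the second subunit of polymerase alpha, was at 8.20 and 8.53 in 3583T3 control cells, 8.67 and 8.98 with Nfib, 9.26 and 8.91 with Mycl1, and 9.38 and 9.02 with both. In 3151T4 Pola2 was at 7.55 and 7.73 in control cells, 8.06 and 7.88 with Nfib, 8.63 and 8.71 with Mycl1, and 9.18 and 9.01 with both. The 3151T4 groups stood in this order without overlap. Pola2 changed by 0.40 ± 0.17 with Nfib, which was not called, and rose by 0.87 ± 0.17 with Mycl1 (adjusted p = 0.00985) and by 1.14 ± 0.17 with both (0.000636).

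Pold2, a subunit of polymerase delta, was the gene called with the smallest p among the 38 with Nfib. Pold2 was at 8.82 and 8.76 in 3583T3 control cells, 9.40 and 9.73 with Nfib, 9.54 and 9.45 with Mycl1, and 9.83 and 9.26 with both. In 3151T4 Pold2 was at 9.16 and 9.05 in control cells, 9.66 and 9.74 with Nfib, 9.87 and 9.94 with Mycl1, and 10.18 and 10.36 with both. Every array with a vector was above the control arrays of its line. Pold2 rose by 0.68 ± 0.15 with Nfib (adjusted p = 0.00802), 0.75 ± 0.15 with Mycl1 (0.00985) and 0.96 ± 0.15 with both (0.000712), and these 3 calls held whichever array was left out. With both vectors the catalytic subunits of polymerases delta and epsilon, Pold1 and Pole, rose by 1.00 ± 0.20 and 0.54 ± 0.17.

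Pole2, the second subunit of polymerase epsilon, was at 9.15 and 9.03 in 3583T3 control cells, 9.37 and 9.25 with Nfib, 9.15 and 9.43 with Mycl1, and 8.98 and 9.15 with both. In 3151T4 Pole2 was at 8.30 and 8.22 in control cells, 8.95 and 8.85 with Nfib, 8.70 and 8.57 with Mycl1, and 8.93 and 8.97 with both. The control arrays were the lowest in 3151T4 alone, where Pole2 rose with Nfib by 0.64 ± 0.16 (adjusted p = 0.0165) and with both by 0.69 ± 0.16 (0.00722). Over both lines its changes of 0.43, 0.29 and 0.33 (SE 0.14 each) were not called. Prim2 (the large subunit of primase), Prim1 (its catalytic subunit) and Pola1 (that of polymerase alpha) were likewise not called with any vector over both lines, with changes between -0.10 and 0.21.

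Of the 4 genes of Okazaki fragment maturation and single-strand binding, 0 were called with Nfib, 1 with Mycl1 (Rpa2) and 2 with both (Fen1 and Lig1), all higher. Over all genes 5.3%, 6.63% and 16.3% were called higher. Fen1, the nuclease that trims Okazaki fragments, was at 11.32 and 11.61 in 3583T3 control cells, 11.22 and 11.20 with Nfib, 11.81 and 11.15 with Mycl1, and 11.92 and 11.99 with both. In 3151T4 Fen1 was at 10.93 and 10.61 in control cells, 10.71 and 10.53 with Nfib, 11.05 and 11.36 with Mycl1, and 11.67 and 11.28 with both. The arrays with both vectors were above all Nfib and control arrays of their line. Fen1 rose by 0.60 ± 0.15 with both (adjusted p = 0.00887), and Lig1, the ligase that joins the fragments, by 0.57 ± 0.12 (0.00387). Rpa1 and Rpa2, which coat single-stranded DNA, changed by 0.17 ± 0.10 and 0.23 ± 0.12 with both, short of the threshold.

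Of the 4 genes of deoxynucleotide supply, 0 were called with Nfib, 0 with Mycl1 and 2 with both, Tyms by 0.56 ± 0.20 and Tk1 (thymidine kinase) by 0.33 ± 0.12, which were lost in 8 and 10 of the 16 fits without 1 array. Over all genes 16.3% were called higher with both. Rrm2, the small subunit of ribonucleotide reductase that limits the supply in S phase, was at 12.38 and 12.09 in 3583T3 control cells, 12.31 and 12.13 with Nfib, 11.46 and 12.19 with Mycl1, and 12.33 and 12.22 with both. In 3151T4 Rrm2 was at 12.40 and 12.34 in control cells, 12.24 and 12.16 with Nfib, 12.48 and 12.46 with Mycl1, and 12.47 and 12.42 with both. Apart from 1 array at 11.46, the values lay within 12.09 to 12.48, and the changes of -0.09, -0.16 and 0.06 (SE 0.15 each) did not pass the test. Rrm1, the large subunit, changed by -0.27, 0.06 and 0.02 (SE 0.13 each). Tyms, thymidylate synthase, was read near the floor (3.72 to 5.46).

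Of the 2 genes that act on chromatin behind the fork, Chaf1b, which delivers histones to new DNA, rose by 0.95 ± 0.26 with both vectors (adjusted p = 0.0129). Uhrf1, which brings DNA methylation to new strands, was at 12.06 and 11.90 in 3583T3 control cells, 12.12 and 12.07 with Nfib, 11.78 and 11.83 with Mycl1, and 11.90 and 11.93 with both. In 3151T4 Uhrf1 was at 11.40 and 11.23 in control cells, 11.56 and 11.74 with Nfib, 11.84 and 11.93 with Mycl1, and 11.70 and 11.82 with both. The Mycl1 arrays were the lowest of 3583T3 and the highest of 3151T4, and over both lines no change passed the test (0.22, 0.20 and 0.19, SE 0.13 each).

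**Figure D3:**
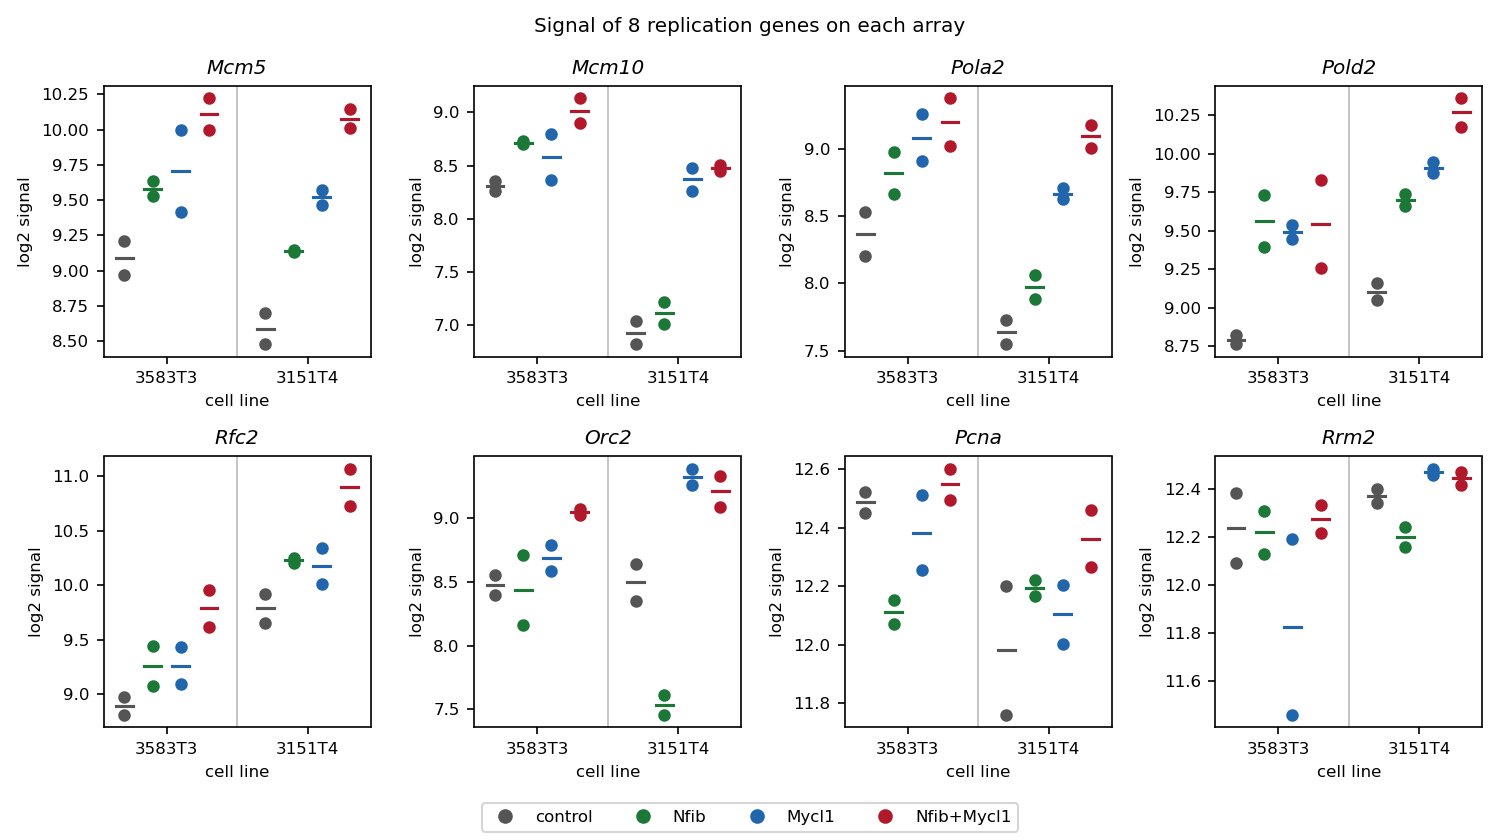
Log2 signal of 8 replication genes on each of the 16 arrays, by line and vector. Points are arrays and bars the mean of 2. For Mcm5 the arrays with both vectors sit between 10.00 and 10.22 and the control arrays between 8.48 and 9.21, while all 16 Rrm2 values lie between 11.46 and 12.48.

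The levels of the control cells, with their leukocyte RNA, do not enter the changes between vectors. The control arrays still entered the estimate of the spread. Adding Nfib to Mycl1 (Nfib+Mycl1 versus Mycl1) gave 1 called gene of 38, Rfc2, which rose by 0.62 ± 0.14 (adjusted p = 0.024, 3.77% of all genes called, 1.78% higher). The median of the 38 genes was 0.08, or 0.15 without the doubted arrays, against -0.02 over all genes, and 7 had an unadjusted p under 0.05. Rfc2 was above the Mycl1 mean of its line on 4 of 4 arrays and was called without the 2 doubted arrays (0.70 ± 0.14, adjusted p = 0.016). The call was lost without any of 4 arrays, namely 3583T3 Mycl1 replicate 2, 3583T3 Nfib+Mycl1 replicate 1, 3151T4 Mycl1 replicate 3 or 3151T4 Nfib+Mycl1 replicate 3 (highest adjusted p 0.0854). The Rfc2 call was also lost when only the groups compared were fitted, without the control arrays.

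Adding Mycl1 to Nfib (Nfib+Mycl1 versus Nfib) gave 11 higher and 1 lower (16.9% of all genes called, 8.89% higher and 8.04% lower), with a median of 0.27 against -0.02. The median was 0.33 against -0.04 without the doubted arrays. Fen1 rose by 0.80 ± 0.15 (adjusted p = 0.0112), Mcm5 by 0.74 ± 0.14 (0.012), Orc2 by 1.14 ± 0.24 (0.0129), Chaf1b by 1.05 ± 0.26 and Orc1 by 1.03 ± 0.29, each above the Nfib mean of its line on 4 of 4 arrays. Pola2 (0.75 ± 0.17), Rfc2 (0.60 ± 0.14), Pold1 (0.73 ± 0.20), Mcm10 (0.84 ± 0.24), Rfc3 (0.35 ± 0.12) and Rpa1 (0.30 ± 0.10) were also higher, and the brightest Mcm4 probe set was lower (-0.63 ± 0.19). In this comparison 0 of the 14 leukocyte markers were called (median -0.02), and 2 of 17 fibroblast markers were lower (median -0.50), with the mean level of the 17 in 3151T4 at 11.25 to 11.36 with Nfib and 10.10 to 10.31 with both. No call held through every leave-out. The count was 0 without 3151T4 Nfib replicate 4 or 3151T4 Nfib+Mycl1 replicate 3, and 6 without 3151T4 Nfib replicate 3 or 3151T4 Nfib+Mycl1 replicate 4. Both arrays that went against their labels are in this comparison, and without them 17 genes were higher and 0 lower (13.1% of all genes higher).

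A change with both vectors that differs from the sum of the single changes was called for 0 of 38 genes (limma, 0.308% of all genes called, 5 of 38 at an unadjusted p under 0.05). The median of this interaction was -0.09, or 0.08 without the doubted arrays. The 5 genes were Fen1 (0.58 ± 0.21), Mcm4 (-0.65 ± 0.27), Cdt1 (-0.37 ± 0.16), Pold2 (-0.48 ± 0.21) and Mcm2 (-0.55 ± 0.24), with adjusted p from 0.473 to 0.504. A p that misses the threshold does not show that the vectors add up.

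Between the lines, over all vectors, the share of replication genes called was under that of all genes. Of 38 genes, 10 were higher in 3583T3 and 8 in 3151T4 (58.6% of all genes called, 27.7% higher in 3583T3 and 30.9% in 3151T4), so that 47.4% of the 38 were called. Rfc3 (-1.004 ± 0.08, adjusted p = 5.68e-08), Rfc2 (-0.97 ± 0.10, 6.48e-07) and Prim2 (-1.18 ± 0.15, 7.14e-06) had the smallest p and were lower in 3583T3. Prim2 was at 9.72 and 9.34 in 3583T3 control cells, 10.04 and 10.11 with Nfib, 9.06 and 9.69 with Mycl1, and 9.70 and 9.12 with both. In 3151T4 Prim2 was at 10.69 and 10.94 in control cells, 10.58 and 10.59 with Nfib, 11.13 and 10.83 with Mycl1, and 10.75 and 10.72 with both. Neither Prim2 nor Rfc3 overlapped between the lines. Mcm6 (-0.49), Rfc4 (-0.61), Cdc45 (-0.52), Pold2 (-0.40) and Prim1 (-0.19) were also lower in 3583T3. Orc1 (1.04 ± 0.21), Mcm10 (0.93 ± 0.17), Tyms (0.83 ± 0.14), Pola2 (0.53), Fen1 (0.51), Pole2 (0.50), Uhrf1 (0.30), Mcm5 (0.29), Lig1 (0.23) and Pcna (0.22) were higher there. Of the 18 calls, 14 held whichever array was left out, and those of Mcm5, Pcna, Lig1 and Prim1 did not.

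Within 3583T3 the 38 genes gave 2 calls with Nfib, both higher (Pold2 and Cdc6, 10.1% of all genes called, 5.13% higher, against 5.26% of the 38), 0 with Mycl1 (limma, 2.94% called, 9 of 38 at an unadjusted p under 0.05) and 6 with both, all higher (13.7% called, 7.13% higher). The 6 were Mcm5 (1.02 ± 0.19, adjusted p = 0.0033), Rfc2 (0.89 ± 0.20), Pola2 (0.83 ± 0.20), Pold2 (0.75 ± 0.19), Mcm10 (0.71 ± 0.19) and Rfc3 (0.64 ± 0.17). Single arrays set these counts: with Nfib 0 were called without 3583T3 Nfib replicate 2 or control replicate 2 and 1 without control replicate 1, and with both 0 were called without control replicate 1, 1 without Nfib+Mycl1 replicate 1 and 3 without control replicate 2. Without the 2 doubted arrays, both of this line, the medians of the 38 genes were 0.18 with Nfib, 0.25 with Mycl1 and 0.26 with both. Over all genes they were 0.01, 0.04 and 0.03. The doubted arrays entered the spread behind the 0 with Mycl1, though not its change, and that count changed without them. This 0 therefore does not show that 3583T3 had no response to Mycl1.

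Within 3151T4 more genes were called, 2 higher and 1 lower with Nfib (13.8% of all genes called, 7.91% higher and 5.86% lower, against 7.89% of the 38), 9 higher with Mycl1 (16.2% called, 7.77% higher) and 23 higher with both (29.9% called, 14.6% higher), with medians of 0.10, 0.45 and 0.57 against 0.22, 0.25 and 0.11 in 3583T3. Without the doubted arrays the 3583T3 medians were 0.18, 0.25 and 0.26. With Mycl1 the calls were Mcm10 (1.44 ± 0.19, adjusted p = 0.000372), Orc1 (1.29 ± 0.22, 0.00204), Pola2 (1.03 ± 0.20, 0.00469), Mcm5, Uhrf1, Pold2, Orc2, Gmnn and Mcm7. With both vectors Mcm10 rose by 1.55 ± 0.19 (adjusted p = 9.84e-05), Mcm5 by 1.49 ± 0.19 (0.000142) and Pola2 by 1.45 ± 0.20 (0.000255), a 2.93-fold, 2.81-fold and 2.74-fold change. Leaving out 3151T4 control replicate 4 brought the count with Mycl1 to 3 and with both to 8. With Mycl1 it was 4 without Mycl1 replicate 4 and 5 without replicate 3, with both 14 without Nfib+Mycl1 replicate 3 and 15 without replicate 4, and with Nfib 0 without Nfib replicate 3 or control replicate 3 and 1 without Nfib replicate 4 or control replicate 4.

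The difference between the lines was tested itself. The signed change with both vectors was lower in 3583T3 than in 3151T4 for 36 of 38 genes, among them Mcm4 and Prim2, whose values were below control in both lines. The median difference was -0.37 against -0.01 over all genes, but 0 of 38 were called (limma, 5.97% of all genes called, 9 of 38 at an unadjusted p under 0.05). Without the doubted arrays the change was lower in 3583T3 for 29 of 38 genes and for 4566 of all 8777, with a median difference of -0.26 against -0.02. The 38 genes share the same control arrays of each line, so they are not separate observations. Pole2 (-0.71 ± 0.23), Mcm10 (-0.84 ± 0.27) and Uhrf1 (-0.51 ± 0.17) had the smallest p, with adjusted p from 0.0973 to 0.117. The response to Nfib gave 0 calls (6.85% of all genes called, 8 of 38 at an unadjusted p under 0.05), with Orc2 the nearest at 0.92 ± 0.29 (adjusted p = 0.0748). The response to Mycl1 differed for 2 genes (2.13% of all genes called, 0.889% in this direction), Mcm10 by -1.17 ± 0.27 (adjusted p = 0.0425) and Uhrf1 by -0.74 ± 0.17 (0.0394). The calls were lost in 11 (Mcm10) and 14 (Uhrf1) of the 16 fits without 1 array, with adjusted p up to 0.212 and 0.183, highest without 3151T4 control replicate 4. The part of the leukocyte RNA, whose markers were higher in 3583T3 than in 3151T4 control cells, was not tested.

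**Figure D4:**
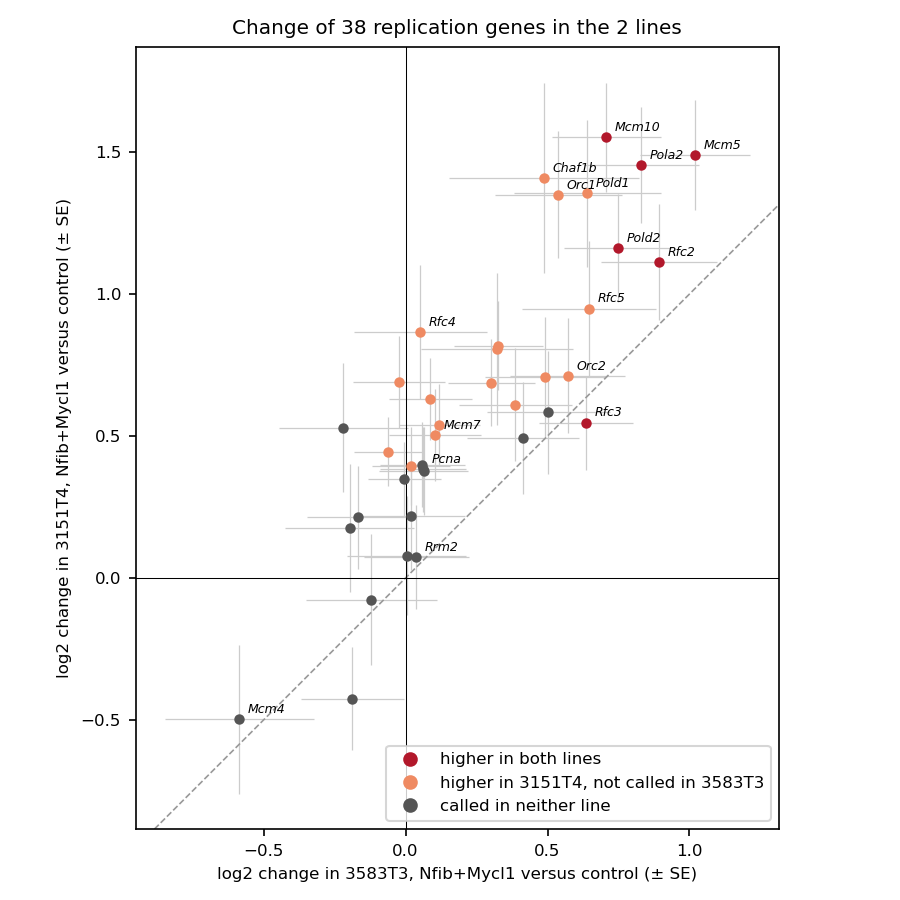
Log2 change (± SE) of the 38 replication genes in Nfib+Mycl1 versus control, in 3583T3 (horizontal) and in 3151T4 (vertical), with the dashed line marking equal change. The 6 genes called in both lines are dark red, the genes called in 3151T4 alone orange and the others grey, and 36 of 38 lie above the line. The 3583T3 values include the doubted Nfib+Mycl1 array, and without the doubted arrays 29 of 38 would lie above it.

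Genes next to these in the cell cycle were followed by the same fits. Of 35 other replication genes, 2 were higher and 1 lower with Nfib, 9 higher with Mycl1, and 16 higher and 1 lower with both (medians 0.09, 0.36 and 0.41), which is 8.57%, 25.7% and 48.6% of them against 10.3%, 11.3% and 31% of all genes. With both vectors Timeless, of the fork protection complex, rose by 1.14 ± 0.17, the helicase Recql4 by 1.53 ± 0.23, Pold3 by 0.74 ± 0.13 and the dUTPase gene Dut by 0.71 ± 0.13, while Dck, a salvage kinase, was lower (-0.66 ± 0.20). With Mycl1 alone the calls include Recql4 (1.20 ± 0.23), Timeless (0.79 ± 0.17), Asf1a (0.71 ± 0.16) and Pold3 (0.54 ± 0.13), and with Nfib Pold3 (0.58 ± 0.13), Timeless (0.65 ± 0.17) and, lower, Orc4 (-0.44 ± 0.13). Adding Mycl1 to Nfib gave 7 higher, among them Recql4 (0.92 ± 0.23), Gins4 (0.62 ± 0.17), Dut (0.46 ± 0.13) and Asf1a (0.55 ± 0.16).

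Of 26 genes of G1/S control and the E2F family, 0 were higher and 2 lower with Nfib, 3 higher and 1 lower with Mycl1, and 5 higher and 3 lower with both. These are 7.69%, 15.4% and 30.8% of the list against 10.3%, 11.3% and 31% of all genes, so the counts with Nfib and with both are near the background. With both vectors the D cyclin gene Ccnd3 (-0.59 ± 0.11) and the RB gene Rb1 (-0.76 ± 0.15) were lower, and Tfdp1 (0.51 ± 0.12), the partner of E2F factors, and E2f4 (0.87 ± 0.22) were higher. Ccne1, the cyclin of S phase entry, was lower with Nfib (-0.87 ± 0.20) and higher in Nfib+Mycl1 than in Nfib (0.73 ± 0.20), where Cdc25a rose by 0.82 ± 0.16 and Rbl2 was lower (-0.78 ± 0.15). E2f3 (0.67 ± 0.17), Cdc25a (0.62 ± 0.16) and Skp2 (0.76 ± 0.21) rose with Mycl1. Of 33 genes of G2 and mitosis, 1 was higher with Nfib, 2 with Mycl1, 11 with both and 8 in Nfib+Mycl1 versus Nfib, and 0 were lower, which against control is 3.03%, 6.06% and 33.3% of the list. Ncapd2 and Ncaph, subunits of condensin, rose with both vectors by 0.81 ± 0.14 and 0.68 ± 0.16, and the checkpoint kinases Bub1b and Ttk by 0.74 ± 0.14 and 0.79 ± 0.18. Adding Nfib to Mycl1 gave 0 calls in each of these 3 lists (limma, 9, 6 and 8 at an unadjusted p under 0.05).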

How the data were processed

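The authors deposited 1 log2 signal per probe set and array for 16 Affymetrix arrays (22690 probe sets), and the submitters' processing notes name GCRMA 2.20.0 and R 2.11.0. That method subtracts a background predicted from each probe's sequence and gives all arrays 1 distribution. Genes with no signal above that background lie at a floor, where changes cannot be read. That the scale is log2 was read from the values (0.48 to 14.40). From 100 ng of RNA, label was made with the Nugen Ovation V2 kit, per the labels' protocols. Genes were named from the 20380 probe sets to which the platform annotation gives 1 symbol, while 691 with several, 1555 with none and 64 controls were left out.

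Each gene was its probe set with the highest mean, after a filter of log2 4 on at least 2 arrays. The models (limma 3.58.1, R 4.3.3, variance trend in eBayes) had vector and line as terms (11 residual degrees of freedom), or with 8 means for changes within a line and responses that differ between lines (8). Benjamini-Hochberg adjustment ran over all 8777 genes in each of 16 comparisons, and genes were called under 0.05. The number of arrays limits the precision. The model over both lines was tried on simulated data, with changes set in Mycl1 versus control alone. Those changes were larger than most given here, and the model with 8 means was not simulated. The simulation therefore says little about the calls given here. Values on all arrays are given for the 3 called genes with the smallest p per comparison and for Mcm5, Pcna, Rrm2, Cdc6 and Cdt1, and up to 4 genes per comparison are named from other lists. The members and lists were chosen with earlier results of these data known. Alternatives were another or no dim filter, every probe set, arrays centred on their medians, only the groups compared, a replicate block, averaged replicates, leaving out each array, and, chosen after seeing the data, leaving out the 2 doubted arrays or x_at and s_at probe sets. Promoters are RefSeq sequences of GRCm38.p6.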

Additional observations from a re-analysis of the deposited data

Results flagged for a closer look

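The response to Mycl1 differed between the lines by limma's test of the difference for 2 of the 38 replication genes. Mcm10 changed less in 3583T3 than in 3151T4, by -1.17 on the log2 scale (SE 0.27, adjusted p = 0.0425), with a change of 0.27 in 3583T3 and 1.44 in 3151T4. Uhrf1 differed by -0.74 (SE 0.17, adjusted p = 0.0394), with a change of -0.18 in 3583T3 and 0.57 in 3151T4. The Mcm10 call was lost in 11 and the Uhrf1 call in 14 of the 16 fits that left out 1 array. Both passed without the 2 doubted arrays (adjusted p = 0.0251 for Mcm10 and 0.0496 for Uhrf1).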

How the results depend on the processing

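The counts of called replication genes out of 38 kept within 1.5 times of the reported count under no filter, the stricter filter of log2 6 (but 1 for the response to Mycl1 that differs between lines, here the line-specific response) and centring on array medians. With averaged replicates, 1 value per line and vector, 0 were called for Nfib versus control, Mycl1 versus control, Nfib+Mycl1 versus Mycl1 and Nfib+Mycl1 versus Nfib, 2 for Nfib+Mycl1 versus control and 11 for the line difference, on fewer samples. Fitting only the groups compared gave 15 for Mycl1 versus control, 0 for Nfib+Mycl1 versus Mycl1, 0 for Nfib in 3583T3, 5 for Nfib in 3151T4, 14 for Mycl1 in 3151T4, 1 for both in 3583T3 and 0 for the line-specific response to Mycl1. Testing every probe set gave 0 for that response. Without the 2 doubted arrays the count was 15 for Mycl1 versus control. The counts for Nfib in 3583T3 and for Mycl1 in each line were then not within 1.5 times either. The deviations of samples with the same replicate number correlated at r from -0.74 to 0.31 over 12 pairs of vectors within a line. The -0.74 was between Nfib and Nfib+Mycl1 in 3583T3, whose replicate 2 arrays are the 2 doubted ones. Whether these samples share more than the number was not tested. With it as a replicate block the counts were 3 for Mycl1 versus control, 0 for Nfib+Mycl1 versus Mycl1, 7 for Nfib+Mycl1 versus Nfib, 1 for Nfib in 3583T3 and 0 for the line-specific response to Mycl1, and within 1.5 times for the others. Leaving out 1 array gave 1 to 3 for Nfib versus control, 3 to 12 for Mycl1 versus control, 12 to 21 for both versus control, 0 to 2 for both versus Mycl1, 0 to 15 for both versus Nfib, 15 to 19 for the line difference, 0 to 2 and 0 to 4 for Nfib in 3583T3 and 3151T4, 0 to 2 and 3 to 11 for Mycl1, 0 to 8 and 8 to 25 for both, 0 to 1 for the line-specific response to Nfib and 0 to 2 for that to Mycl1. The interaction and the line-specific response to both gave 0 under every alternative run. Without x_at and s_at probe sets Mcm4 turned to 0.51 in both versus control and to 0.38 in both versus Nfib, read from its other probe set, and over the control arrays alone the line difference of Prim1 was 0.0066, where the cause was not tested.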

Other observations

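The 2 arrays of 1 group, 3583T3 Mycl1, differed in several replication genes, in both directions. Replicates 1 and 2 had 11.77 and 12.60 for the brightest Mcm4 probe set and 11.46 and 12.19 for Rrm2, but 11.81 and 11.15 for Fen1 and 8.69 and 7.86 for Chaf1b. The median signal of the 38 genes was lowest on a 3583T3 control array (10.01) and highest on a 3151T4 Nfib+Mycl1 array (11.03). Over all 38 genes the mean deviation from each gene's mean over the 16 arrays was -0.18 and -0.17 on the 3583T3 control arrays and -0.34 and -0.25 on the 3151T4 control arrays. With both vectors it was 0.19 and -0.04 in 3583T3, the lower on the array whose Mycl signal went against its label, and 0.32 and 0.33 in 3151T4.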
